A study of Mus musculus with 6 samples.

Results

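The probes for 10 transcription factor genes that define the pancreatic beta cell, Pdx1, Mafa, Nkx6-1, Nkx2-2, Neurod1, Isl1, Pax6, Foxa2, Rfx6 and Insm1, were taken by gene symbol from the arrays. They numbered 14 of 39429 non-control probes and stood for 10 of 25776 genes and unnamed transcripts tested. Total RNA came from MIN6B1, an insulin-secreting mouse insulinoma line that stands in for beta cells. The treated group received for 48 h a small interfering RNA, or siRNA, directed at circHIPK3, the circular RNA that Hipk3 gives rise to, and the control group for the same time siGFP, whose target is green fluorescent protein. There were 3 samples a group, and every sample had a single-colour Agilent array to itself. Nothing in the labels says whether samples of 1 group came from different cultures. The p-values therefore measure no more than how these samples varied, which may be technical. No file header names the slide, and it was inferred from shared scan times and array positions in the headers. By this inference circHIPK3 siRNA replicate 1 was on the slide of all 3 siGFP arrays, called the first slide, and circHIPK3 siRNA replicates 2 and 3 were on a second slide. On the first slide circHIPK3 siRNA thus has 1 array, assumed to vary like the siGFP arrays, so an SE or p given for that slide takes its spread from the siGFP arrays alone, moderated by limma over all genes.

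Beta cell identity is held by a circuit of transcription factors that bind the enhancers of insulin and other beta cell genes and also the enhancers of one another. Several act as activators of the mature programme, some chiefly as repressors of the programmes of other islet cells, and loss of single factors in the mouse changes or removes beta cells. The factors belong to the homeodomain, basic leucine zipper, basic helix-loop-helix, forkhead, RFX and zinc finger families.

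The 10 genes showed no change past the threshold after circHIPK3 siRNA. By limma with Benjamini-Hochberg adjustment at 0.05, 0 of 10 genes and 0 of 14 probes were called, where 1.18% of all genes and 1.34% of all kept probes were. At an unadjusted p under 0.05 the limma count was also 0 of 10, against 21.1% of all genes. For every one of the 10 the ranges of the groups overlapped, whereas the groups did not overlap for 25.9% of all genes. Changes, given as circHIPK3 siRNA minus siGFP on the log2 scale, ran from -0.21 for Rfx6 to 0.16 for Neurod1. The limma 95% intervals of the 10 genes together spanned -0.50 to 0.44, so that each single interval leaves out a fall beyond 1.41-fold and a rise beyond 1.36-fold. The intervals are per gene and hold only if slides did not differ.

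The array-level facts that bear on these values are as follows. The 75th percentile of the processed signal was 2939 units on the dimmest array and 3669 on the brightest, and the share of probes well above background ranged from 77.7% to 83.5%. All 14 probes of the 10 genes were well above background on all 6 arrays and none was saturated. Hipk3, whose circular product was the target, had a log2 signal of 2.64 ± 0.21 with circHIPK3 siRNA and 2.81 ± 0.14 with siGFP (SD, n = 3 each), a change of -0.17 ± 0.14 (SE, limma adjusted p = 0.500), and a second probe gave -0.31 ± 0.12 (SE). Neither probe could be placed inside or outside the circularised exon from the sources used here, and they do not check the knockdown. The 8 beta cell markers listed for the check include Pdx1, Mafa and Nkx6-1, which are among the 10 genes and add nothing here. The others are Ins1, Ins2, Iapp, Slc30a8 and the dim Slc2a2, and all 8 were well above background on all 6 arrays. Of 23 markers of other islet, pancreatic, stromal, endothelial and blood cells, 18 were too, including the glucagon gene Gcg. The delta cell regulator Hhex was so on no array. Of all 39429 non-control probes, 30049 were well above background on all 6 arrays, so 18 of 23 is near the share of all probes. The 18 also include dim markers, such as Krt19 at -5.91 and Sst at -5.37 with siGFP, where 0 is the array's 75th percentile. None of the 23 markers was called. In such bulk RNA, fewer cells of a type and less RNA per cell cannot be told apart.

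Signals below are log2 processed intensities minus the array's 75th percentile, so that 0 marks that percentile. They compare arrays for 1 probe, not probes with each other. Pdx1, the homeodomain factor that activates insulin transcription and is needed for the pancreas to form, had 1.67, 1.71 and 1.92 on the circHIPK3 siRNA arrays against 1.76, 1.55 and 1.88 on the siGFP arrays. The lowest Pdx1 value was an siGFP array and the highest a circHIPK3 siRNA array, and the groups lay across each other. Its change was 0.04 ± 0.12 (SE, 95% interval -0.25 to 0.33, limma adjusted p = 0.886). Mafa, the basic leucine zipper factor that marks mature beta cells and binds the insulin promoter, had 1.98, 2.30 and 2.27 with circHIPK3 siRNA and 2.20, 2.09 and 2.32 with siGFP. Replicate 1 of circHIPK3 siRNA was the lowest array for Mafa and the other two lay inside the siGFP range. The change was -0.02 ± 0.12 (SE, limma adjusted p = 0.945).

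**Figure D1:**
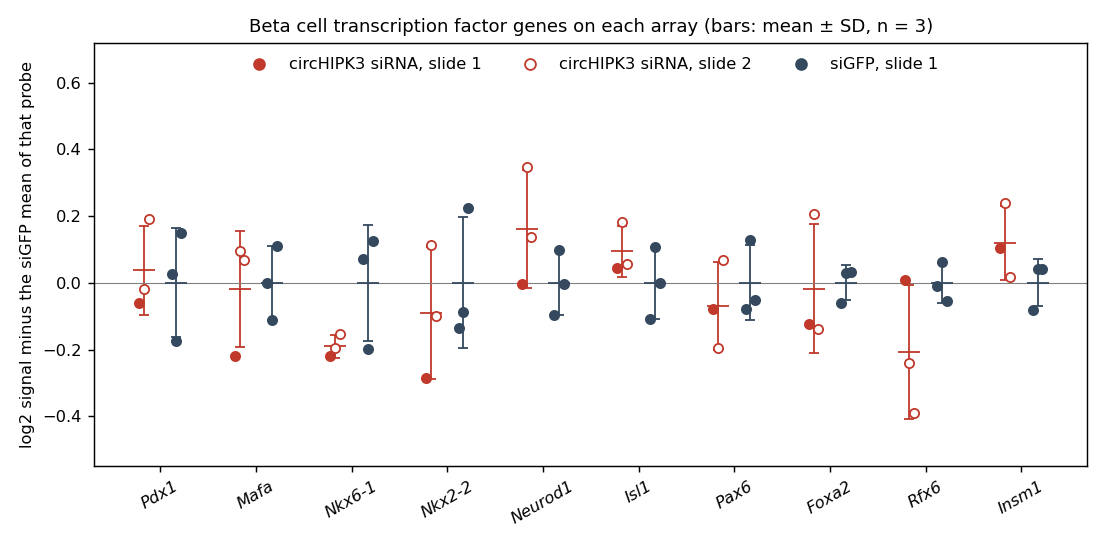
Log2 signal of the brightest probe of each gene on each of the 6 arrays, minus the siGFP mean of that probe, with circHIPK3 siRNA (red) left of siGFP (dark) and the mean ± SD of 3 arrays as bars. Open circles are the circHIPK3 siRNA arrays of the second slide, and for none of the 10 genes do the groups separate.

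Nkx6-1 and Nkx2-2 are homeodomain repressors that keep other islet cell programmes silent in beta cells. Nkx6-1 had the tightest circHIPK3 siRNA group, at 2.53, 2.56 and 2.60, against 2.83, 2.56 and 2.88 with siGFP. All 3 circHIPK3 siRNA arrays lay below siGFP replicates 1 and 3, and siGFP replicate 2 lay among them. The Nkx6-1 change was -0.19 ± 0.11 (SE, 95% interval -0.46 to 0.08, limma adjusted p = 0.363), and a two-sided exact permutation test gave p = 0.30, where 3 against 3 arrays allow no p below 0.10. Nkx6-1 was the 1 gene of the 10 whose groups ceased to overlap under another scaling, by the array median. Under that scaling the groups did not overlap for 25.0% of all genes, and the Nkx6-1 change was -0.29 (limma adjusted p = 0.232). Without siGFP replicate 2 it was also -0.29 (limma adjusted p = 0.259). That array was the lowest of the siGFP group, so leaving it out could only make the change more negative.

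Nkx2-2 was read by 2 probes annotated to different RefSeq transcripts. The brighter, annotated NM_010919, had 1.59, 1.99 and 1.78 with circHIPK3 siRNA and 1.74, 1.79 and 2.10 with siGFP, a change of -0.09 ± 0.15 (SE, limma adjusted p = 0.744). The dimmer, annotated NM_001077632, had 0.93, 1.04 and 0.85 with circHIPK3 siRNA and 0.78, 0.85 and 0.92 with siGFP. That is a change of 0.09 ± 0.10 (SE, limma adjusted p = 0.620 over the kept probes), so the probes differed in sign and neither passed. The difference between the 2 probes within an array was 0.66, 0.95 and 0.92 with circHIPK3 siRNA and 0.96, 0.93 and 1.18 with siGFP (two-sided exact permutation p = 0.20, and 0.267 when adjusted over the 4 genes with 2 probes).

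Isl1 and Pax6 serve all islet endocrine cells, Isl1 as a LIM-homeodomain factor that works with the cofactor Ldb1 and Pax6 as a paired-box factor that activates the insulin and glucagon genes. Isl1 was printed as 10 spots on each array, whose log2 values had an SD between 0.041 and 0.066 within an array. The mean over those spots was 1.32, 1.46 and 1.33 with circHIPK3 siRNA and 1.16, 1.38 and 1.27 with siGFP, so that arrays of 1 group (SD 0.077 and 0.108) differed more than spots of 1 array. The Isl1 change was 0.09 ± 0.10 (SE, limma adjusted p = 0.614). Pax6 had -0.82, -0.94 and -0.67 by its brighter probe with circHIPK3 siRNA against -0.82, -0.61 and -0.79 with siGFP. By its dimmer probe, Pax6 had -4.08, -3.93 and -4.00 with circHIPK3 siRNA against -4.11, -3.98 and -4.18 with siGFP. The 2 Pax6 probes gave -0.07 ± 0.11 and 0.09 ± 0.10 (SE, limma adjusted p = 0.752 and 0.632 over the kept probes), again of opposite sign and neither past the threshold.

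Neurod1 is a basic helix-loop-helix factor that binds the insulin E-box with E proteins and drives endocrine maturation. Its brighter probe had 2.19, 2.54 and 2.33 with circHIPK3 siRNA and 2.10, 2.29 and 2.19 with siGFP. Replicate 1 of circHIPK3 siRNA fell inside the siGFP range, while replicates 2 and 3, on the second slide, lay above it. Neurod1 had the highest change of the 10 genes, 0.16 ± 0.12 (SE, 95% interval -0.12 to 0.44, limma adjusted p = 0.464), and its second probe gave 0.11 ± 0.13 (SE). On the first slide alone, with 1 circHIPK3 siRNA array, the Neurod1 change was -0.0048 ± 0.15 (SE). Insm1, a zinc finger repressor of the endocrine lineage, had 3.64, 3.78 and 3.55 with circHIPK3 siRNA and 3.45, 3.58 and 3.58 with siGFP, a change of 0.12 ± 0.10 (SE, limma adjusted p = 0.517).

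Foxa2 is a forkhead factor that opens chromatin early in pancreas development and binds the Pdx1 enhancer. Its brighter probe had 1.91, 2.24 and 1.89 with circHIPK3 siRNA and 1.97, 2.06 and 2.06 with siGFP. The siGFP arrays lay within the spread of the circHIPK3 siRNA arrays, and the change was -0.02 ± 0.12 (SE, limma adjusted p = 0.945), with 0.05 ± 0.13 (SE) by the second probe. Rfx6, an RFX factor required for islet cells to form and for beta cells to keep their secretory genes, had 2.00, 1.75 and 1.60 with circHIPK3 siRNA and 1.98, 2.06 and 1.94 with siGFP. Here circHIPK3 siRNA replicate 1 lay inside the siGFP range and replicates 2 and 3 lay below it. Rfx6 had the lowest change, -0.21 ± 0.12 (SE, 95% interval -0.50 to 0.08, limma adjusted p = 0.357, two-sided exact permutation p = 0.30). On the first slide, with its 1 circHIPK3 siRNA array, the Rfx6 change was 0.0072 ± 0.14 (SE, spread from siGFP alone), and without circHIPK3 siRNA replicate 1, when each group lies on its own slide, it was -0.32 ± 0.11 (SE, limma adjusted p = 0.124). For those replicates slide and siRNA cannot be told apart.

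**Figure D2:**
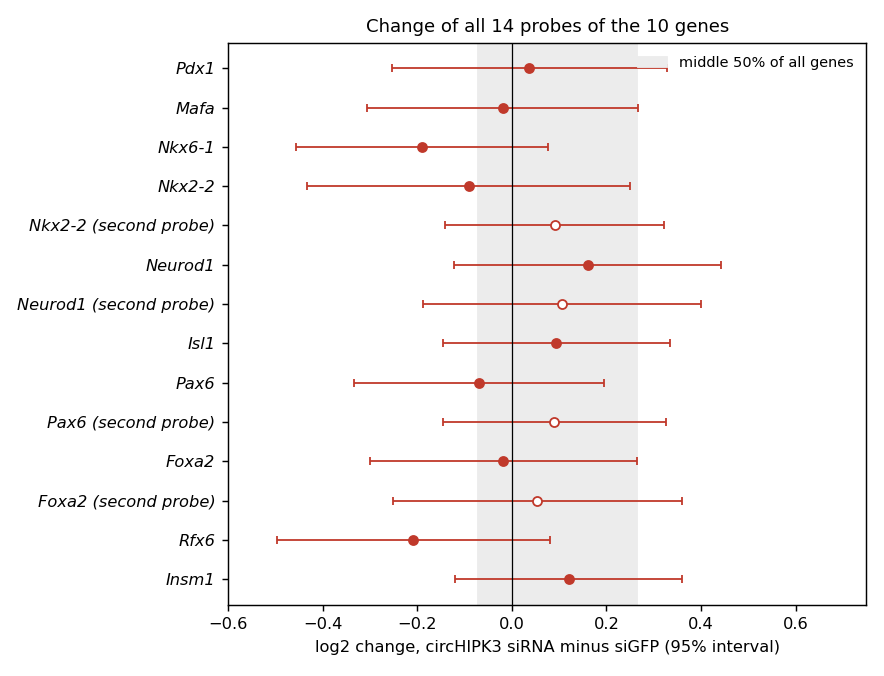
Log2 change (circHIPK3 siRNA minus siGFP, limma fit over all kept probes) of all 14 probes with 95% intervals, filled for the brightest probe of a gene and open for a second probe; the grey band holds the middle 50% of the changes of all genes. All 14 intervals include 0, and the 2 probes of Nkx2-2, of Pax6 and of Foxa2 lie on opposite sides of it.

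The same comparison was made within the first slide, where circHIPK3 siRNA replicate 1 stood against the 3 siGFP arrays. The changes of the 10 genes then ran from -0.28 for Nkx2-2 and -0.22 for both Nkx6-1 and Mafa to 0.10 for Insm1, with SE between 0.14 and 0.19, and limma adjusted p-values between 0.652 and 0.996. With 1 array in an arm these values describe that array and are no replicated check of the slide. Across the members, circHIPK3 siRNA replicate 1 was the lowest of its group for 6 of 10 genes and replicate 2 the highest for 6 of 10. Among siGFP arrays, replicate 1 was the lowest for 6 and replicate 3 the highest for 6. The spread that limits the test was that of ordinary genes: the median SD within groups was 0.142 for the 10 genes and 0.160 for all genes, and the median absolute change was 0.09 and 0.18.

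Read against all genes, the median change of the 10 factors was -0.02 where that of all genes was 0.08, so that they lay 0.10 below it, and 7 of 10 had a lower change than the typical gene. This offset depended on the scaling. It was -0.0045 under quantile normalization, -0.02 under cyclic loess and -0.05 with normexp background correction, with 6 of 10 genes under the all-gene median in each case. Array median scaling, which shifts all genes of an array alike, left it at -0.10 with 7 of 10 genes under that median. The direction of Pdx1, Mafa and Foxa2 also turned between scalings, and Isl1, at 0.09 here, was at -0.0083 after array median scaling, which put the median of all genes at -0.02. Nkx6-1, Nkx2-2, Pax6 and Rfx6 were lower and Neurod1 and Insm1 higher under every scaling tried, and none of these 6 passed under any of 20 alternatives.

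**Figure D3:**
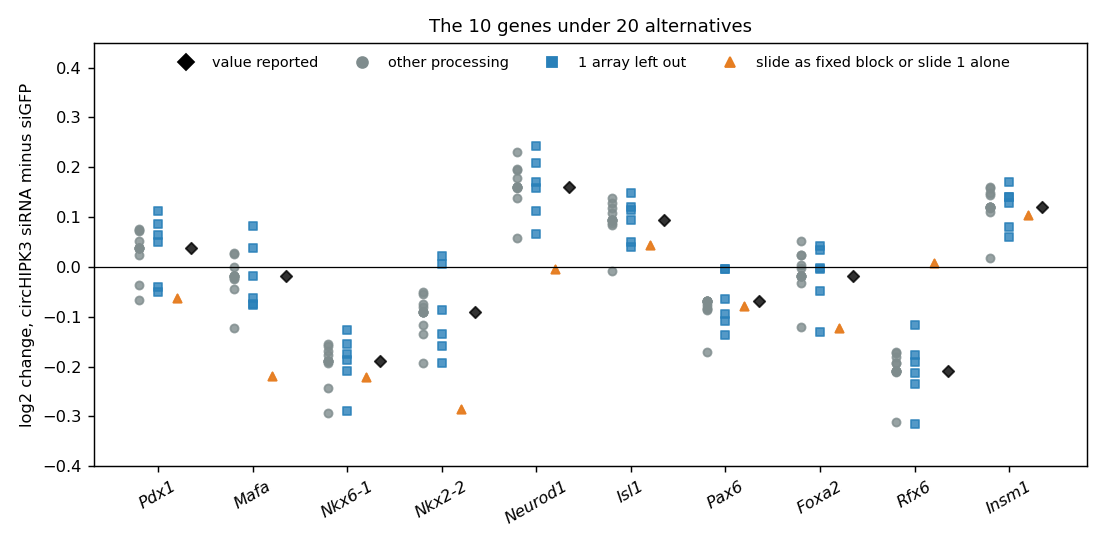
Log2 change (circHIPK3 siRNA minus siGFP) of each gene as reported (diamonds), under other processing or with slide as a random block (circles), with 1 array left out (squares) and with slide as a fixed block or slide 1 alone (triangles, which coincide). Every value lies between -0.32 and 0.24, and the triangles of Neurod1 and Rfx6 lie near 0 while their reported values are the highest and the lowest.

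Of the 10 genes 5, Nkx2-2, Neurod1, Pax6, Foxa2 and Insm1, are on chromosome 2, against 8.54% of the symbols on the array. RefSeq promoter windows of assembly GRCm38.p6, from 250 bases before to 50 after a start site, covered 8 of the 10 genes with 11 windows. Their median GC content was 58.7%, against 52.7% for 32851 windows of all genes, and their median ratio of observed to expected CpG was 0.767 against 0.384. The windows were searched on both strands for CANNTG, the E-box bound by Neurod1 and its partners, TAAT, the core read by many homeodomains, TGTTTNC, a forkhead motif, and TGCTGAC, a MAF motif. The windows of the genes with the lowest and the highest change, and that of Pdx1, are shown 5′ to 3′ on the gene's strand. CANNTG and TAAT or its complement ATTA are in capitals. None of these genes was called, and a relation between window and change was not tested.
Rfx6 (chr10:51685268-51685567, + strand): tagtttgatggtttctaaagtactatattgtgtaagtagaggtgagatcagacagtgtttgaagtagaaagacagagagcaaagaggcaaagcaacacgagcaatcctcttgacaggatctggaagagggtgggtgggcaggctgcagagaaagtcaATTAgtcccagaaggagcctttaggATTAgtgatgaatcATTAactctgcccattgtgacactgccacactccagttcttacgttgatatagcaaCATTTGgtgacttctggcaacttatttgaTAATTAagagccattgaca
Neurod1 (chr2:79456587-79456886, - strand): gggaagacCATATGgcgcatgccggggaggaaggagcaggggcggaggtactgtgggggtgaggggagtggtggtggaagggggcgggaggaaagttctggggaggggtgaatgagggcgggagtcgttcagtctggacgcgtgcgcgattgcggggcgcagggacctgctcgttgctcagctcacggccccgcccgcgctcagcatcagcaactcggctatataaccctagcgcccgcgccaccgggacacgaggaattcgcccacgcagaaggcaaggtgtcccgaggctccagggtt
Pdx1 (chr5:147269847-147270146, + strand): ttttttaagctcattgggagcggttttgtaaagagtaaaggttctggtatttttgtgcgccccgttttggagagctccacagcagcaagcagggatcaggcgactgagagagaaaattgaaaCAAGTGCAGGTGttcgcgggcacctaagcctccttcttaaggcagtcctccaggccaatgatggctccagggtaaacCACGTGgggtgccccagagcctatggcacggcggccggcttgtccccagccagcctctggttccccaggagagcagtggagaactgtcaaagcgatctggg
The Rfx6 window has a GC content of 42.3% and 5 matches to TAAT, the Neurod1 window 66.7% and 0, and the Pdx1 window 55.3% and 0. CANNTG was found 1 time in the first, 1 time in the second and 3 times in the third. Over the 11 windows, CANNTG was in 7 (63.6%, against 72.3% of all windows), TAAT in 7 (63.6%, against 58.0%), TGTTTNC in 0 (against 20.5%) and TGCTGAC in 1 (9.09%, against 4.67%). No CANNTG match overlapped a TAAT match in these windows. A match describes letters in the window and is no evidence of binding, and no match says nothing of the factor.

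The wider network was followed through 3 lists. Of 34 other islet transcription factors measured, 0 rose and 0 fell at the threshold, and the list median was 0.06 where that of all genes was 0.08. Of all genes 0.535% were called higher and 0.640% lower. Neurog3, the basic helix-loop-helix factor that starts endocrine differentiation and activates Neurod1, had 2.80, 3.01 and 2.85 with circHIPK3 siRNA and 2.47, 2.33 and 2.42 with siGFP. All 3 circHIPK3 siRNA arrays lay above all siGFP arrays, at a difference of 0.48 ± 0.10 (SE) that missed the threshold (limma adjusted p = 0.0702). It passed under 3 of 20 alternatives, namely trend and robust variance, array weights and without circHIPK3 siRNA replicate 1. Onecut2, a cut-homeodomain factor, had 1.02, 0.97 and 0.95 with circHIPK3 siRNA against 1.32, 1.25 and 1.40 with siGFP, a difference of -0.34 ± 0.09 (SE, limma adjusted p = 0.116).

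Among 38 partners and modifiers of the factors, such as E proteins, Ldb1, Id proteins and chromatin enzymes, 0 were called and the median was 0.0032. Setd7, a lysine methyltransferase reported to work with Pdx1, had 1.61, 1.57 and 1.43 with circHIPK3 siRNA and 1.09, 0.99 and 1.08 with siGFP. This difference of 0.48 ± 0.10 (SE, limma adjusted p = 0.0620) passed under 3 alternatives. Hdac1, a histone deacetylase that Insm1 and other repressors recruit, had 2.62, 2.72 and 2.37 with circHIPK3 siRNA and 3.11, 3.08 and 3.11 with siGFP by its brightest probe, a difference of -0.54 ± 0.12 (SE, limma adjusted p = 0.0716). It passed under 1 alternative, and its other probes gave -0.51 ± 0.09 and -0.58 ± 0.11 (SE).

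Of 34 measured target genes of the factors in beta cells, 0 were called and the median was -0.11. Under this scaling 30 had a change under the all-gene median of 0.08. Relative to all genes the list median was -0.19, and the same with array median scaling. It was -0.12 with quantile normalization, -0.14 with cyclic loess and -0.13 with normexp background correction. The circHIPK3 siRNA arrays lay wholly below the siGFP arrays for 10 of the 34 and wholly above for 2, where all genes gave 9.38% and 16.6%. The 2 above were Syt4 at 0.76 ± 0.16 (SE, limma adjusted p = 0.0716) and Pcsk1 at 0.39 ± 0.14 (SE, limma adjusted p = 0.175). Slc2a2, which encodes the glucose transporter GLUT2 and is a target of Pdx1, had -5.40, -4.46 and -4.94 with circHIPK3 siRNA against -3.87, -3.78 and -3.75 with siGFP. The difference was -1.14 ± 0.22 (SE, limma adjusted p = 0.0585), and it passed under 6 of 20 alternatives, among them leaving out circHIPK3 siRNA replicate 1. This probe is dim, and the size of the Slc2a2 difference ran from -1.60 to -0.86 over the alternatives, the latter with normexp background correction. Trpm5, a cation channel gene, averaged 0.64 with circHIPK3 siRNA and 1.24 with siGFP, with no overlap between the groups, at a difference of -0.59 ± 0.12 (SE, limma adjusted p = 0.0631, past the threshold under 1 alternative). The insulin genes, the best known targets of Pdx1, Mafa and Neurod1, stood at -0.12 ± 0.09 for Ins1 and -0.12 ± 0.10 for Ins2 (SE). A difference in behaviour between the factors and their targets was not tested.

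**Figure D4:**
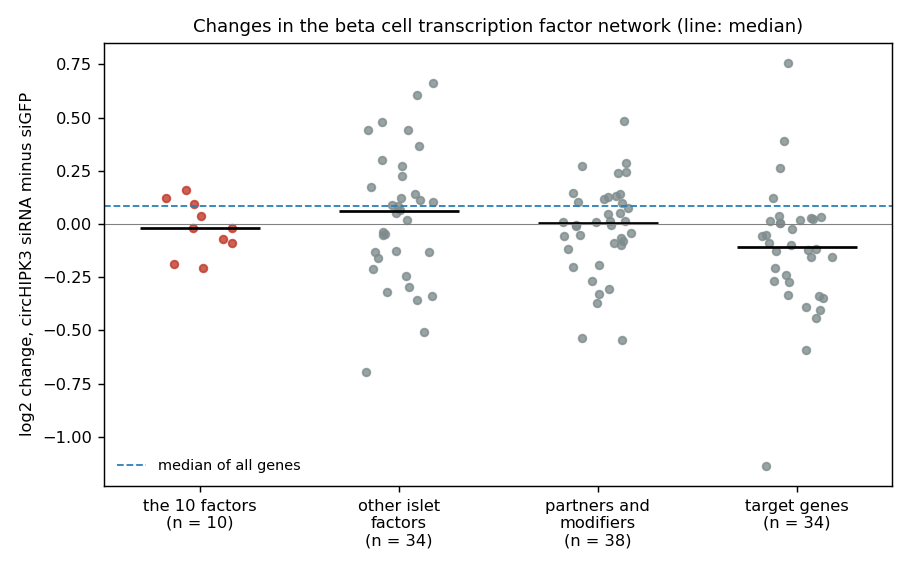
Log2 change (circHIPK3 siRNA minus siGFP) of each measured gene in the 10 factors (red) and in the lists of other islet factors, partners and modifiers, and target genes (grey), with list medians as black lines and the median of all genes, 0.08, dashed. No gene shown passed the threshold, and the 10 factors lie between -0.21 and 0.16 while the lowest target gene, Slc2a2, lies at -1.14.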

How the data were processed

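The deposited scanner files give an intensity for every spot. The authors made it by background subtraction in Agilent Feature Extraction (version 11.0.1.1, which the submitters' processing notes and, per the file headers, each file name). A deposited table gives log2 values of the same arrays; its normalization is not given in the sources used here. The deposited table was used only as an alternative. Spots marked as non-uniform or population outliers were left out, spots of a probe were averaged, and log2 intensities were taken minus each array's 75th percentile over 43020 non-control spots. A probe was kept if well above background (most of its spots) on all 3 arrays of a group, which left 31380 probes. Symbols came from matching accessions to RefSeq (GRCm38.p6), for 27234 of 39429 probes. The brightest kept probe stood for a gene. limma 3.58.1 (R 4.3.3) compared the groups, with p-values adjusted over 25776 genes, or over 31380 probes for second probes. Figures used matplotlib 3.10.9. The procedure was tested on simulated data. The genes and lists were chosen with earlier results of these data known. Named list genes are the called ones and the 2 uncalled ones with the smallest p per list. Ins1 and Ins2 were added, as were Syt4 and Pcsk1 after their values were seen. Each alternative changed 1 step, except that trend and robust variance were set together and the deposited table changed values, scaling and the genes tested together.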

Additional observations from a re-analysis of the deposited data

How the results depend on the processing

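None of the 10 genes and none of the 14 probes passed under any alternative run, which were 20 for the genes. Of 200 values for the genes, 177 kept their direction, a count that overstates stability. The changes could not move under either other filter on dim probes, with every kept probe, with trend and robust variance or with the replicate block. Slide as a fixed block and the first slide alone give the same changes and are counted separately. The direction turned for Mafa (0.026) and Foxa2 (0.023) under quantile normalization and in the deposited table (0.028 and 0.024), for Foxa2 with normexp (0.0032) and array weights (0.052), for Pdx1 with array weights (-0.036) and array median scaling (-0.066), and for Isl1 with the latter scaling (-0.0083). With slide as a fixed block, or the first slide alone, Pdx1 (-0.061), Neurod1 (-0.0048) and Rfx6 (0.0072) turned, and both settings rest on 1 circHIPK3 siRNA array. With slide as a random block none of the 10 turned (Pdx1 0.024, Neurod1 0.14, Rfx6 -0.18). Leaving out 1 array gave ranges that include both directions for Pdx1 (-0.051 to 0.11), Mafa (-0.076 to 0.081), Nkx2-2 (-0.19 to 0.022) and Foxa2 (-0.13 to 0.041). The median of the 10 genes relative to all genes, -0.10, was -0.0045 with quantile normalization, -0.020 with cyclic loess and -0.0032 in the deposited table. With normexp it was -0.046, with array median scaling still -0.10, and with 1 array left out -0.14 to -0.029. The cause was not tested.

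For all genes, 303 were called, 165 lower and 138 higher, and quantile normalization gave 262, split 218 and 44. The count was 602 with array median scaling (399 lower), 425 with cyclic loess (324 lower), 279 with normexp (241 lower), 185 in the deposited table (151 lower), 177 with all arrays above background (127 lower), 622 with trend and robust variance (427 lower), 819 with array weights (381 lower) and 124 with slide as a random block. It was 0 by limma with no filter on dim probes (5631 at an unadjusted p under 0.05), with the replicate block (5133), with slide as a fixed block (2676) and on the first slide alone (2871). With 1 array left out it ran from 0 to 1736, the highest without circHIPK3 siRNA replicate 1, and 0 without any single siGFP array (3345 to 5067 at an unadjusted p under 0.05). Nothing in the labels says whether the replicate number pairs the samples. In their deviations from the group means, same-numbered arrays correlated at -0.02, 0.27 and -0.13, and differently numbered ones at -0.35 to 0.29. Deviations within a group sum to 0, so these values cannot decide whether samples were paired. The replicate block left 0 members called.

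Target genes, with 0 called, had 1 with array median scaling, cyclic loess and array weights, 2 with normexp (1 lower and 1 higher) and 3 with trend and robust variance. Partners had 1 with cyclic loess and array weights and 2 with trend and robust variance. Other islet factors had 1 with trend and robust variance and with array weights. With 1 array left out the counts were 0 to 2 for other islet factors, 0 to 1 for targets and 0 to 2 for markers of other islet cells, the highest each time without circHIPK3 siRNA replicate 1. The number of arrays limits the precision.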

Other observations

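Markers of other islet cells and of other tissues were read beside the factors. None of 11 measured genes of alpha, delta, PP and epsilon cells and none of 13 of acinar, duct, stromal and blood cells was called. Fev, a serotonergic and endocrine progenitor factor gene, had -2.80, -2.52 and -2.35 with circHIPK3 siRNA and -3.10, -3.15 and -2.89 with siGFP, a difference of 0.49 ± 0.14 (SE, limma adjusted p = 0.133). Irx1, an alpha cell homeodomain factor gene, had -5.04, -4.22 and -3.97 with circHIPK3 siRNA and -5.02, -5.41 and -5.24 with siGFP. Its circHIPK3 siRNA replicate 1 lay in the siGFP range, and both Fev and Irx1 passed only when that array was left out, among 20 alternatives. The Irx1 difference was 0.81 ± 0.27 (SE), but 0.19 on the first slide alone, where that of Fev was 0.24. Of the 11 measured genes of this list, 4 had a difference below 0, and the list median was 0.11 against 0.08 for all genes. Further markers of the list were named after their values were seen. Lower ones included Gcg at -0.59 ± 0.30, Irx2 at -0.25 ± 0.15 and Ttr at -0.22 ± 0.20 (SE). Higher ones included Ppy at 0.52 ± 0.21 and Sst at 0.30 ± 0.12 (SE). Muc1 and Col3a1, markers of duct and stromal cells, had differences of 0.51 ± 0.13 and 0.52 ± 0.15 (SE) and passed under none. Muc1 was at 0.29 with cyclic loess, and Col3a1 at 0.27 with quantile normalization and 0.14 with normexp. Other duct and stromal markers, also named after their values were seen, stood at -0.17 ± 0.36 for Krt19, 0.07 ± 0.16 for Krt7 and -0.20 ± 0.17 for Col1a1 (SE). The summed signal of the islet list, relative to the 75th percentile and over 15 probes, was 50.0, 54.2 and 62.6 with circHIPK3 siRNA and 64.2, 59.6 and 79.9 with siGFP, and that of the other list over 17 probes was 6.90, 5.33 and 7.10 with circHIPK3 siRNA and 6.87, 5.65 and 7.13 with siGFP. Their part in the results was not tested.

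Hdac1 was lower by 0.51 to 0.58 by all 3 of its probes, a difference that missed the threshold by each (limma adjusted p = 0.0506, 0.0564 and 0.0705 over all kept probes). Over the 6 arrays, the genes whose values were most like those of Rfx6, the factor with the largest change, were Dpm1, Anpep and Pcgf1, at a Pearson correlation of 0.992, 0.990 and 0.985. A correlation above 0.95 was reached by 69 genes and unnamed transcripts, and the arrays share slides and scaling, so this describes these 6 arrays only.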
